A study of Mus musculus with 8 samples.

Results

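The genes described here encode the transforming growth factor beta (TGF-beta) ligands Tgfb1, Tgfb2 and Tgfb3, the receptors Tgfbr1 and Tgfbr2, the inhibitory Smad protein Smad7 and the inhibitor of DNA binding factors Id1, Id2, Id3 and Id4. They were chosen by symbol, as 10 of the 27179 genes in a count table of mouse epidermal cells, and each had a single row. RNA was sequenced from epidermal cells of 4 aged and 4 adult C57BL/6J mice, 1 mouse per library by the study's methods, after whole-torso skin had been floated on dispase and the epidermis lifted off. The comparison asks how transcript levels in the epidermis differ with age. By their labels the aged mice were 73 weeks old and the adult mice 17 to 25 weeks old, but in the methods 73 weeks is when an antibody course began, and aged mice are described as older than that. A control IgG antibody (210 µg in 100 µl, given intraperitoneally on 3 occasions a week over 12 weeks) is on the label of all 8 samples. The methods speak of injections only in ageing mice, and they list adult and aged mice as conditions separate from IgG-treated aged mice, with the ribosomal-depletion kit of these labels used for adult versus aged. It is therefore unsettled whether mice of either group were injected, and if only aged mice were, age and injection cannot be told apart.

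TGF-beta ligands are secreted in a latent form and, once released, bind Tgfbr2, which recruits and phosphorylates Tgfbr1. The activated receptor passes the signal to Smad2 and Smad3, which enter the nucleus with Smad4, and Smad7 feeds back by turning the receptor off. In skin the pathway holds keratinocytes back from dividing and takes part in the regression and renewal of hair follicles. Id proteins bind E proteins such as Tcf3, Tcf4 and Tcf12 without binding DNA themselves, and their genes are classical targets of the related bone morphogenetic protein (BMP) branch, which signals through Smad1, Smad5 and Smad9.

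None of the 10 genes passed the test between aged and adult libraries. A gene was called where the adjusted p of edgeR's quasi-likelihood test was under 0.1 and the log2 fold change over 0.32 in size. The study set the same cutoffs in DESeq2, but on fold changes shrunk by that program, a step not taken here. Of the 17702 genes tested, 0.113% were called (5 higher and 15 lower in aged libraries). All 10 genes were expressed well enough to be tested, and DESeq2 and limma-voom called none of them either. In edgeR, 2 of the 10 had an unadjusted p under 0.05, Tgfbr2 above and Id4 below the adult level, against 5.99% of all genes tested. The estimated change was above 0 for 7 genes and below 0 for 3, with a median of 0.10 on the log2 scale beside 0.01 over all genes tested. For 6 of the 10 genes, adult replicates 3 and 4 stood at one end of the 8 libraries. They had the lowest levels of every ligand and both receptors and the highest of Id4, whereas adult replicates 1 and 2 were near the aged libraries. For Smad7 and Id2, aged replicate 1 stood apart from the other aged libraries, and Id1 and Id3 split by replicate number in both groups.

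The libraries held 75027694 to 90140102 counts. Basal keratinocyte markers (7 genes such as Krt5 and Krt14) summed to 11678 to 16921 CPM (counts scaled to an equal library total) in aged libraries and 7991 to 14907 CPM in adult libraries, while 7 endothelial markers summed to 1.81 to 3.91 CPM in aged and 2.77 to 4.10 CPM in adult libraries. Mitochondrial transcripts took 21.0%, 17.3%, 24.3% and 25.5% of the counts in aged replicates 1 to 4 and 17.5%, 18.2%, 25.3% and 31.1% in adult replicates 1 to 4, with replicates 3 and 4 above replicates 1 and 2 in both groups. Adult replicates 3 and 4 stood apart from the other libraries in marker levels, which are given beside the results they touch.

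Tgfb2, a ligand expressed in developing and cycling hair follicles, had 7.10, 6.48, 5.25 and 4.54 CPM in aged replicates 1 to 4, against 8.07, 6.51, 1.29 and 2.13 CPM in adult replicates 1 to 4. Adult replicates 1 and 2 lay within or above the aged range, and adult replicates 3 and 4 lay below all of them, so the groups overlapped. The log2 fold change was 0.37 ± 0.50 (SE, adjusted p = 0.913), with a 95% interval of -0.76 to 1.51. The counts behind the lowest values were 94 and 152 reads in adult replicates 3 and 4, and counting error is small beside such gaps.

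Tgfb1, the most widely studied isoform and a product of many cell types including leukocytes, had 5.74, 5.03, 6.27 and 3.97 CPM in aged libraries, against 5.46, 6.85, 3.17 and 3.21 CPM in adult libraries. Its log2 fold change was 0.17 ± 0.28 (adjusted p = 0.932). Tgfb3, known for its part in palate closure and also made in skin, had 10.3, 7.21, 7.73 and 7.01 CPM in aged libraries, against 10.7, 9.69, 3.66 and 5.68 CPM in adult libraries. The change was 0.12 ± 0.31 (adjusted p = 0.965). Both genes followed Tgfb2, with adult replicates 3 and 4 lowest and the adult values on both sides of the aged ones. Part of Tgfb3 lies opposite Ttll5 on the other strand. The counting options listed in the study's methods name no strand setting and let a read count for every gene it overlaps. A read in a stretch where exons of both genes overlap could therefore count for both. Whether their exons overlap was not examined. Ttll5 itself held 1358 to 1426 reads in aged and 1335 to 1570 reads in adult libraries.

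Tgfbr2 encodes the receptor that binds the ligand first. It had 85.0, 85.0, 75.9 and 74.7 CPM in aged libraries, against 73.8, 70.7, 31.4 and 41.7 CPM in adult libraries. This was the only one of the 10 genes whose groups did not overlap, against 3.54% of all genes tested, and the lowest aged value lay close to the highest adult value. The log2 fold change was 0.56 ± 0.25 with a 95% interval of 0.00 to 1.12 (unadjusted p = 0.0497, adjusted p = 0.824). Tgfbr1, the signaling partner of Tgfbr2, had 37.0, 35.3, 35.1 and 35.7 CPM in aged libraries, against 40.8, 33.2, 28.3 and 31.9 CPM in adult libraries. Its change was 0.09 ± 0.11 (adjusted p = 0.901), and the aged values lay inside the adult range. Across aged libraries Tgfbr1 was among the steadiest genes measured, with an SD of 0.03 on the log2 scale, and 1.14% of all genes tested had a smaller one.

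Smad7, itself induced by TGF-beta and BMP signals, had 15.0, 9.09, 9.27 and 9.13 CPM in aged libraries, against 11.6, 12.4, 7.87 and 11.0 CPM in adult libraries. Aged replicate 1 stood alone above all others, and the other 3 aged values lay within the adult range. The log2 fold change was -0.01 ± 0.21 (adjusted p = 0.996), with a 95% interval of -0.47 to 0.45.

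The 4 Id genes had unlike profiles. Id4, best known from neural progenitors and spermatogonial stem cells, had 17.2, 14.3, 11.4 and 16.0 CPM in aged libraries, against 16.8, 17.9, 29.3 and 25.1 CPM in adult libraries. The groups overlapped through aged replicate 1 and adult replicate 1, and adult replicates 3 and 4 were highest. The log2 fold change was -0.60 ± 0.20 with a 95% interval of -1.04 to -0.15 (unadjusted p = 0.0147, adjusted p = 0.730). Id4 lies opposite the antisense gene A330033J07Rik, which held 176 to 301 reads in aged and 258 to 360 reads in adult libraries. As for Tgfb3, a read where exons of both genes overlap could count for both, and such overlap was not examined. Id2, expressed in epidermis and in Langerhans cells, which need it to form, had 18.7, 11.1, 9.73 and 11.3 CPM in aged libraries, against 16.7, 17.0, 15.4 and 18.6 CPM in adult libraries. Aged replicates 2 to 4 lay below every adult value, and aged replicate 1 lay level with the highest of them. Its change was -0.41 ± 0.19 (adjusted p = 0.833), and it was -0.66 (adjusted p = 0.209) without aged replicate 1.

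Id1 and Id3, the pair most often used as a readout of BMP signaling, split by replicate number in both age groups. Id1 had 33.5, 32.7, 20.7 and 24.7 CPM in aged libraries, against 28.1, 31.9, 24.0 and 24.8 CPM in adult libraries. Id3 had 39.1, 25.3, 16.3 and 15.9 CPM in aged libraries, against 29.8, 27.4, 13.6 and 18.6 CPM in adult libraries. For both genes replicates 1 and 2 were above replicates 3 and 4 within each age group. The mitochondrial share split the libraries the same way with the opposite sign, and its part in these levels was not tested. The changes with age were 0.04 ± 0.17 for Id1 (adjusted p = 0.981) and 0.11 ± 0.33 for Id3 (adjusted p = 0.969), and the groups overlapped for both.

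**Figure D1:**
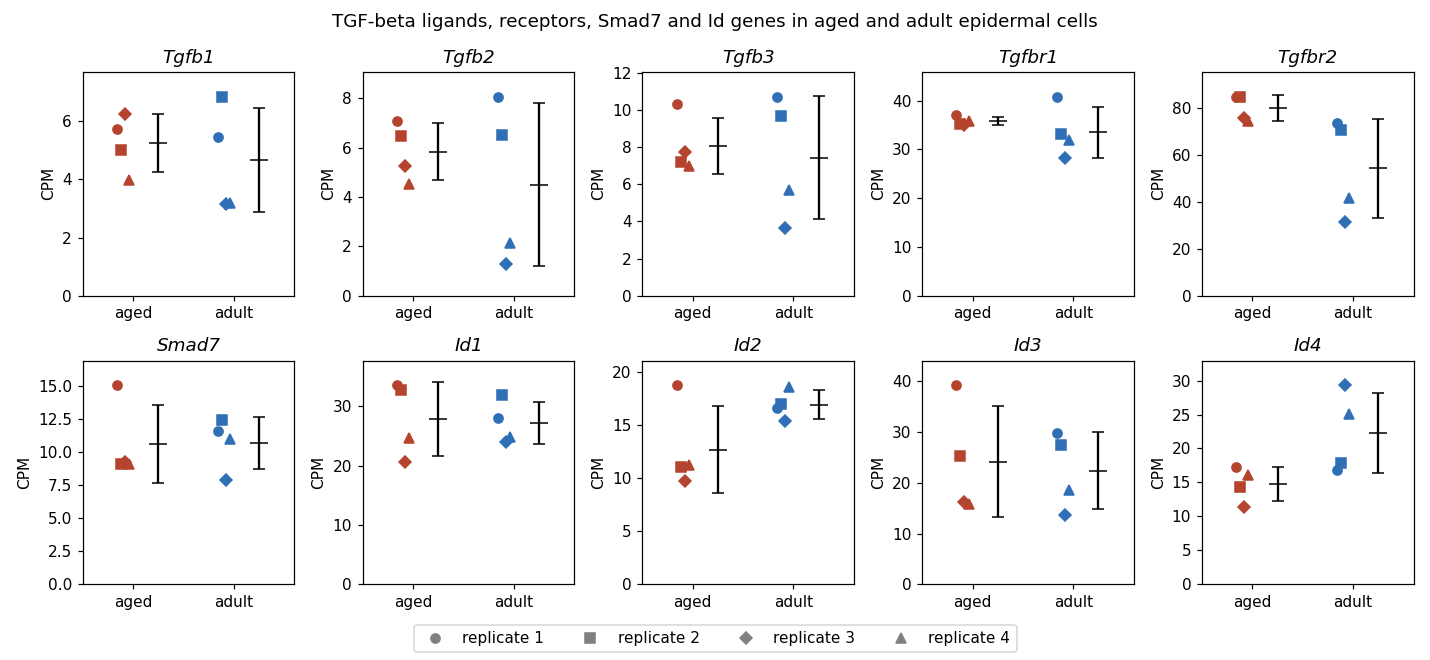
CPM (vertical axes, from 0) of the 10 genes in the 4 aged (red, left) and 4 adult (blue, right) libraries, with marker shapes for replicate numbers and the mean ± SD beside each group. Adult replicates 3 and 4 are lowest for Tgfb1, Tgfb2, Tgfb3, Tgfbr1 and Tgfbr2 and highest for Id4. Aged replicate 1 stands apart from the other aged libraries for Smad7 and Id2.

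**Figure D2:**
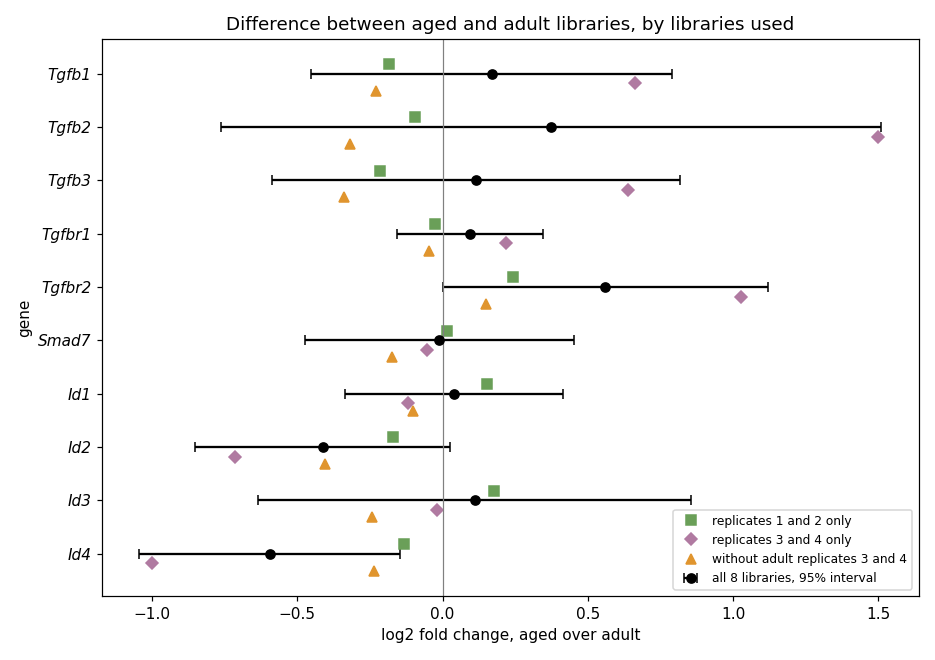
Log2 fold change of aged over adult (horizontal axis) for each gene, from all 8 libraries with its 95% interval (black), from replicates 1 and 2 only (squares), from replicates 3 and 4 only (diamonds) and without adult replicates 3 and 4 (triangles). For Tgfb2 the diamond lies at 1.50 and the square at -0.10, and for Id4 they lie at -1.002 and -0.13.

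Divided by the summed length of all GENCODE exons of a gene, the levels spanned a wide range. The study counted reads on the built-in mm10 annotation of featureCounts, whose exon lengths were not used here. A length that differs from the counted exons shifts a gene alike in all 8 libraries, so the order of the genes holds for these lengths only. Id1 came first, with 24.1 CPM per kilobase in aged and 23.4 CPM per kilobase in adult libraries, and Tgfb2 last, with 1.01 in aged and 0.78 CPM per kilobase in adult libraries. Between them came Id3, Tgfbr2, Id2, Tgfbr1, Id4, Smad7, Tgfb3 and Tgfb1 in the order of their means over the 8 libraries. Id1 exceeded Id3, Id4 exceeded Smad7 and Tgfb3 exceeded Tgfb1 in 8 of 8 libraries. The remaining neighbors in this order changed places between libraries, with Smad7 above Tgfb3 in 3 of 8 libraries and Tgfb1 above Tgfb2 in 5 of 8. Both receptors had more transcript per length than any ligand gene in the mean of either group, with Tgfbr2 at 9.79 in aged and 6.64 CPM per kilobase in adult libraries, and Tgfb3, the highest ligand gene, at 2.38 in aged and 2.20 CPM per kilobase in adult libraries.

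The spread of the ligand genes was unequal between the groups. SDs are of log2 CPM after a small constant was added to each CPM, which lowers them most for genes with low CPM. For Tgfb2 the SD was 0.27 over aged and 1.09 over adult libraries. Of all genes tested, 99.0% had a smaller SD than that over the adult libraries. Tgfb3 had an SD of 0.24 over aged and 0.67 over adult libraries, and Tgfbr2 had 0.10 over aged and 0.59 over adult libraries. The median over all genes tested was 0.19 in aged and 0.20 in adult libraries. Smad7, Id1, Id2 and Id3 went the other way. The SD was 0.40 over aged and 0.11 over adult libraries for Id2, 0.33 over aged and 0.18 over adult libraries for Id1, 0.60 over aged and 0.51 over adult libraries for Id3, and 0.34 over aged and 0.28 over adult libraries for Smad7. These are descriptions of 4 libraries each, and the difference in spread was not tested.

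Adult replicates 3 and 4 were both below the other 6 libraries for 5 of the 10 genes, namely all 3 ligands and both receptors, and both above them for Id4. Over all genes tested this held for 17.1% on the low side and 14.6% on the high side, so these 2 libraries differed broadly from the rest. With scaling by library size alone the same 5 and 1 genes showed it, against 27.6% and 5.88% of all genes tested. Within replicates 3 and 4 only, 4 of the 10 genes were called, against 12.0% of the 17744 genes tested in those 4 libraries. Tgfb2 (1.50 on the log2 scale, adjusted p = 0.028) and Tgfbr2 (1.03, adjusted p = 0.013) were higher in aged libraries, and Id2 (-0.71, adjusted p = 0.044) and Id4 (-1.002, adjusted p = 0.026) were lower. Within replicates 1 and 2 only, no gene of the table was called by edgeR, with 592 genes at an unadjusted p under 0.05. There Tgfb2 had a log2 fold change of -0.10, Tgfbr2 of 0.24, Id2 of -0.17 and Id4 of -0.13.

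Whether the age difference itself differed between the replicate pairs was tested with an interaction term in edgeR, an alternative added after the data had been seen. The log2 fold change in replicates 3 and 4 minus that in replicates 1 and 2 was 1.62 ± 0.36 for Tgfb2 (adjusted p = 0.154), 0.81 ± 0.19 for Tgfbr2 (adjusted p = 0.166) and -0.85 ± 0.25 for Id4 (adjusted p = 0.254). None of the 10 genes passed the threshold, although 112 of the 17702 genes did. Without adult replicates 3 and 4 the change of Tgfb2 was -0.32, that of Tgfbr2 was 0.15 and that of Id4 was -0.24, with no member of the 10 called. The labels do not say what a replicate number marks, so an experimental batch and differences between mice cannot be told apart here.

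Marker levels moved with these libraries. Basal keratinocyte markers summed to 7991 and 8107 CPM in adult replicates 3 and 4, below the other 6 libraries. The 7 suprabasal markers, such as Krt1 and Krt10, summed to 11709 and 10283 CPM there and to 4337 and 6684 CPM in adult replicates 1 and 2. Over aged libraries that sum was 5197 to 10800 CPM, so aged replicate 4, the highest of them, lay between adult replicates 3 and 4. The 14 hair shaft and inner sheath markers in the table summed to 267 to 563 CPM over aged libraries, 250 and 416 CPM in adult replicates 1 and 2, and 763 and 1256 CPM in adult replicates 3 and 4. Gata3, with 167 to 284 CPM over aged and 210 to 271 CPM over adult libraries, made up most of the lowest sums. The sum of 9 hair follicle stem cell and outer sheath markers was also highest in adult replicates 3 and 4, with 943 and 721 CPM. It was 389 to 567 CPM over aged libraries and 586 and 517 CPM in adult replicates 1 and 2. Krt6a made up much of it, with 631 and 409 CPM in adult replicates 3 and 4 and 149 to 239 CPM over aged libraries. The other markers were mixed. Sox9 was also highest in adult replicates 3 and 4 (79.2 and 59.2 CPM). Cd34 had 47.0 and 49.9 CPM there, below the 102 and 68.4 CPM of adult replicates 1 and 2. The 7 early response genes, such as Fos and Egr1, which react to handling of tissue within minutes, summed to 6109 to 8166 CPM over aged libraries, 8383 and 6181 CPM in adult replicates 1 and 2, and 2124 and 3549 CPM in adult replicates 3 and 4. The 9 Langerhans cell and macrophage markers summed to 220 to 435 CPM over aged libraries, 409 and 399 CPM in adult replicates 1 and 2, and 196 and 207 CPM in adult replicates 3 and 4, the lowest of all. Epcam, which keratinocytes of the follicle also express, made up much of that sum, with 79.8 to 107 CPM over aged and 106 to 140 CPM over adult libraries. Cd207 (langerin), chosen after its values were seen as was Epcam, had 31.9, 13.7, 8.70 and 6.22 CPM in aged replicates 1 to 4, against 25.7, 21.0, 0.863 and 2.94 CPM in adult replicates 1 to 4. Tgfb1 was lowest and Id2 was not lowest in the libraries with the least Cd207. Both Cd207 and Id2 were highest in aged replicate 1, where Id2 was level with adult replicate 4. The part of Langerhans cells in the level of Tgfb1 or Id2 was not tested. Fibroblast and dermal papilla markers summed to 26.9 to 75.9 CPM in aged and 27.2 to 60.4 CPM in adult libraries. No marker of any list was called and none was at 0 in all libraries. In bulk RNA, fewer cells of a type and less RNA per cell cannot be told apart, and the part of cell composition or handling in the levels of the 10 genes was not tested.

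**Figure D3:**
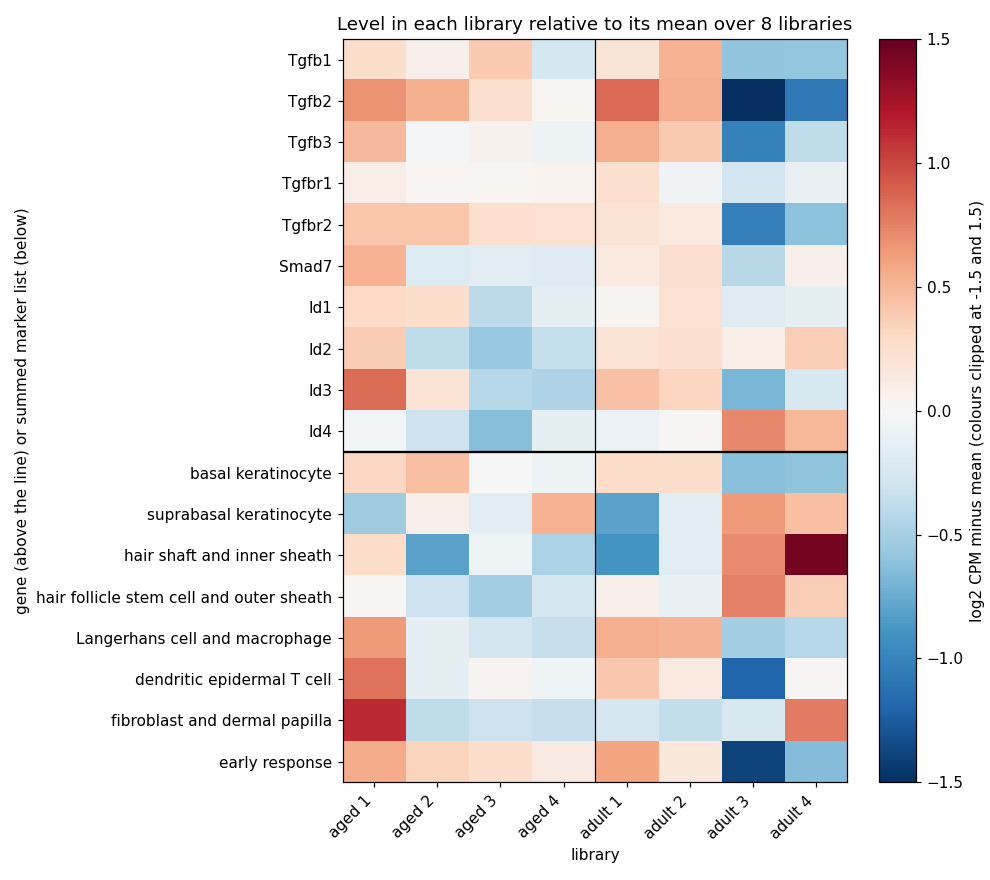
Each row shows log2 CPM in the 8 libraries (columns, aged left and adult right) minus the row's mean, for the 10 genes above the line and for 8 summed marker lists below it. The columns of adult replicates 3 and 4 are blue for the ligands, receptors, basal keratinocyte and early response rows and red for Id4 and the hair shaft row.

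The promoters of Tgfbr2 and Id4 are shown because adult replicates 3 and 4 set the lowest Tgfbr2 and the highest Id4 levels and both genes were called within replicates 3 and 4. Each run is the 250 bases before the start of the gene's RefSeq record on GRCm38.p6, read on the gene's strand. Capitals mark CAGAC (or GTCTG on the other strand), the core of the Smad-binding element, in Tgfbr2, and GGCGCC, a GC-rich Smad element known from BMP target genes, in Id4. The windows are chr9:116175364-116175613 on the minus strand and chr13:48260866-48261115 on the plus strand.
Tgfbr2: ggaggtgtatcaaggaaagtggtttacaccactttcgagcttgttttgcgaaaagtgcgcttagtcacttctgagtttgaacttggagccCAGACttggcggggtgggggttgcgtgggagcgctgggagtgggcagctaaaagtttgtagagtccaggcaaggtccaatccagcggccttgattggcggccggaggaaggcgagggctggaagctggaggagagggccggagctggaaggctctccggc
Id4: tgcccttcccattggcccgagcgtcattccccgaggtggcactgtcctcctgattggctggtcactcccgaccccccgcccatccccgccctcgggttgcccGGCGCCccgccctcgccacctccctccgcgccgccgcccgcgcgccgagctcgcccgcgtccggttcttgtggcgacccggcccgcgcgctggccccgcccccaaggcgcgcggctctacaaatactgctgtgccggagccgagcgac

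Both strands were searched, and GGCGCC reads the same on either. CAGAC occurred once in the Tgfbr2 window, and 42.2% of the 32851 promoter windows of the same length hold it. GGCGCC occurred once in the Id4 window and also in those of Id2 and Tgfbr1, against 9.59% of all windows. The Tgfbr2 window held no GGCGCC and the Id4 window no CAGAC, so each gene is marked for the motif it held. CACGTG and TATAAA were also searched and occurred in neither window. GC content was 58.4% for Tgfbr2 and 75.6% for Id4, beside a median of 52.4% over all windows. A match is a description of these letters and not a measured binding site. A window at the start of the RefSeq record was matched for 6 of the 10 genes. That of Tgfb2 lies inside its record and was not used.

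The other genes of the pathway, 65 in 8 groups by role, were read from the same fit. Of the 64 that could be tested none was called in either direction by edgeR, DESeq2 or limma-voom, 29 had estimates above 0 and 35 below, and the median was -0.04. At an unadjusted p under 0.05, 1 was higher and 6 were lower in aged libraries, against 5.99% of all genes tested in either direction. The groups did not overlap for 4 genes, all lower in aged libraries, namely Furin, Smurf2, Acvr1b and Tcf3, against 3.54% of all genes tested in either direction. Within replicates 3 and 4 only, 17 of the 64 were called, 12 higher and 5 lower in aged libraries, beside the 12.0% of all genes given above.

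Among the genes of ligand storage and release, Thbs1, which encodes the latency-releasing thrombospondin, was the most abundant, with 1284, 286, 411 and 449 CPM in aged libraries, against 786, 287, 57.7 and 122 CPM in adult libraries. Its log2 fold change of 0.96 ± 0.76 (adjusted p = 0.859) was within a wide spread. Furin, the protease that cleaves the ligand precursors, had 41.0 to 52.8 CPM in aged and 54.3 to 58.2 CPM in adult libraries and changed by -0.23 ± 0.09 (adjusted p = 0.812). Itgb6, a subunit of an epithelial integrin that frees the ligand, had a change of 0.24 ± 0.20 (adjusted p = 0.873). Tgfbr3, the co-receptor betaglycan, had 93.5, 91.0, 94.6 and 84.2 CPM in aged libraries, against 101, 95.6, 50.9 and 56.0 CPM in adult libraries, with adult replicates 3 and 4 lowest as for Tgfbr2. Its change was 0.26 ± 0.22 (adjusted p = 0.869).

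None of the 6 transducer genes had an unadjusted p under 0.05. Smad4, the partner of all receptor-activated Smads, had 78.0 to 81.1 CPM in aged and 77.4 to 88.6 CPM in adult libraries, and Smad5, the most abundant Smad gene measured, changed by 0.03 ± 0.10 (adjusted p = 0.970). Of the negative regulators, Ski, a Smad corepressor, changed by -0.09 ± 0.10 (adjusted p = 0.897). Smurf2, a ubiquitin ligase that Smad7 brings to the receptor, had 64.6 to 68.6 CPM in aged and 69.1 to 72.4 CPM in adult libraries, a change of only -0.08 ± 0.07 (adjusted p = 0.867). Smad6, the inhibitory Smad of the BMP branch, was low, with 0.756 to 1.86 CPM in aged and 0.885 to 2.39 CPM in adult libraries (-0.44 ± 0.37, adjusted p = 0.871). Bmpr1a, the main type I BMP receptor of epidermis, changed by -0.04 ± 0.10 (adjusted p = 0.965). Acvr1b, a type I activin receptor, had 80.3 to 98.3 CPM in aged and 100 to 126 CPM in adult libraries and changed by -0.28 ± 0.10 (adjusted p = 0.775).

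No target gene of either branch passed the test. Of 12 TGF-beta target genes, 10 had estimates above 0 with a median of 0.26, and adult replicates 3 and 4 were both lowest for 7 of them. The aged mean was above the adult mean for 9 of the 12 in replicates 1 and 2, and for 11 in replicates 3 and 4. Junb, the most abundant of them and an AP-1 subunit that also answers to tissue handling, had 785, 756, 553 and 571 CPM in aged libraries, against 748, 707, 245 and 375 CPM in adult libraries. Its change was 0.36 ± 0.33 (adjusted p = 0.881), and its lowest values were those of adult replicates 3 and 4. Of 9 BMP target genes, 8 had estimates below 0 with a median of -0.44, but in replicates 1 and 2 the aged mean was above the adult mean for 5 of the 9, and in replicates 3 and 4 for 2. Gata3, a regulator of epidermal and inner sheath fate and the most abundant of them, changed by -0.07 ± 0.16 (adjusted p = 0.961). The 3 E protein partners of the Id factors all had estimates below 0. Tcf3 had 37.5 to 41.5 CPM in aged and 42.1 to 48.4 CPM in adult libraries (-0.20 ± 0.08, adjusted p = 0.805), Tcf4 changed by -0.27 ± 0.11 (adjusted p = 0.787) and Tcf12, the most abundant, by -0.14 ± 0.10 (adjusted p = 0.850).

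**Figure D4:**
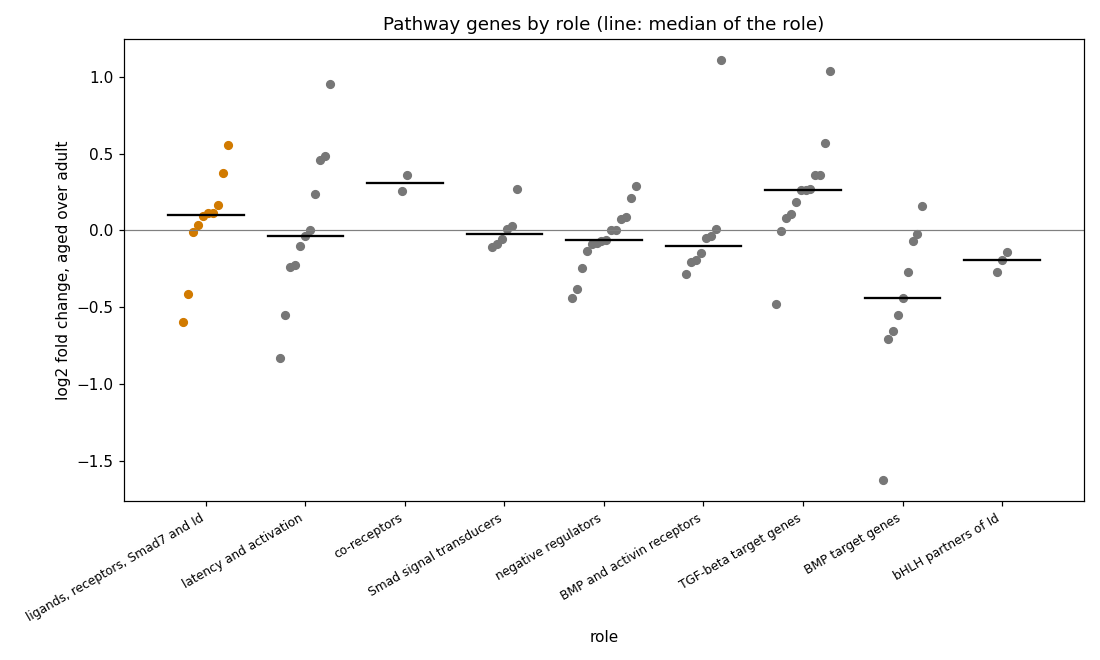
Log2 fold change of aged over adult (vertical axis) for the 10 genes (left, orange) and for the 64 tested pathway genes by role (grey points), with the median of each role as a line and Smad6 drawn in both of its roles. The medians are 0.10 for the 10 genes, 0.26 for TGF-beta targets and -0.44 for BMP targets, and no point passed the test.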

How the data were processed

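Bulk RNA was sequenced from epidermal cells of 4 aged and 4 adult mice. The authors deposited raw counts per gene, whole numbers for 27179 Entrez identifiers with no normalization. By the labels and the study's methods, reads were aligned to mm10 with STAR 2.5.2b and counted with featureCounts. The labels also list mm9. Their molecule entry is polyA RNA, but their protocol is a stranded ribosomal-depletion kit. The counting options listed in the methods name no strand setting and let a read count for every gene it overlaps. RefSeq symbols named 25275 identifiers.

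Depth was 75027694 to 90140102 counts, so the spread between mice set the precision. Chi-square divided by its degrees of freedom was 74.4 to 418 between replicates of a group, far beyond counting noise. Differences were tested with edgeR 4.0.16 (R 4.3.3), TMM scaling, its expression filter and Benjamini-Hochberg adjustment over 17702 genes. Adjusted p-values are those of edgeR. CPM are TMM-scaled, and errors of fold changes are SE. The 10 genes and the lists were chosen with earlier results of these data known. Of the pathway list, those with separated groups, the most abundant of each role and 7 preset genes are named, except 1 preset gene that is not reported here. The study modelled an experimental batch, but no source used here assigns samples to batches, so none entered the test. The test was checked on simulated counts.

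Over all genes, the deviations of aged replicates 1 to 4 from their group mean correlated at 0.34, 0.48, 0.25 and 0.34 with those of the adult library of like number. As each exceeded 0.1, replicate numbers were treated as pairs in alternative fits, from the data only, and the main fit ignored this pairing. Aged 4 correlated more with adult 3 (0.44), however, and 2 further unlike pairs also lay over 0.1. With the number as a replicate block, 3 genes were called in place of 20, and none of the 10 genes was. In that edgeR fit Tgfbr2, Id2 and Id4 had an unadjusted p under 0.05 (0.0136, 0.0301 and 0.0393). So did 2237 of all genes tested, against 1060 in the main fit. With the 2-level batch the p-values of these 3 genes were 0.00444, 0.0410 and 0.0169, beside 2166 of all genes under 0.05. Alternatives were 3 scalings, 2 filters, DESeq2 1.42.0, limma-voom (limma 3.58.1), the block, a 2-level batch, leaving out single libraries, the splits by replicate pair, leaving out adult replicates 3 and 4 or mitochondrial genes, and an interaction of age with the pair.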

Additional observations from a re-analysis of the deposited data

Results flagged for a closer look

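In groups of 4, a library was singled out where the ratio of its gap to the nearest other over the group's range passed Dixon's 95% critical value. Chance marks about 1 in 20 groups, and 20 groups were examined. Smad7 in aged replicate 1 reached 15.0 CPM, with a ratio of 0.969. Id2 in the same library reached 18.7 CPM, with a ratio of 0.831. Aged replicate 1 was also the highest aged library for 8 of the 10 genes. Of all libraries it had the highest sums of fibroblast and dermal papilla (75.9 CPM) and Langerhans cell and macrophage markers (435 CPM). The same held for dendritic epidermal T cell markers (93.3 CPM) and for the small Merkel cell (1.27 CPM) and muscle (5.59 CPM) sums. The part of that library's composition in these values was not tested.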

How the results depend on the processing

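No member of the 10 genes and no other pathway gene was called under any alternative run except replicates 3 and 4 only, where 4 of the 10 and 17 of the pathway genes were called, with Tgfb2 at 1.50, Tgfbr2 at 1.03, Id2 at -0.71 and Id4 at -1.002. Tgfbr2 stayed above 0, and Id2 and Id4 below 0, under every alternative run. Over all genes, 20 were called. The count was 13 with library size alone, 202 with DESeq2, 57 with the 2-level batch, 3 with the replicate block, 2135 in replicates 3 and 4 only, 0 in replicates 1 and 2 only (592 at an unadjusted p under 0.05), 10 without adult replicates 3 and 4, and 6 to 15 with single libraries left out. The replicate block changed no other call. The cause of these shifts was not tested beyond the change in libraries used.

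Several estimates changed sign, that of Tgfb2 (0.37 with all libraries) among them. Smad7 was 0.0076 with upper quartile scaling, 0.022 with library size alone and 0.013 in replicates 1 and 2 only. In replicates 1 and 2 only, Tgfb1 was -0.19, Tgfb2 -0.10, Tgfb3 -0.22 and Tgfbr1 -0.025. Without adult replicates 3 and 4, Tgfb1 was -0.23, Tgfb2 -0.32, Tgfb3 -0.34, Tgfbr1 -0.047, Id1 -0.10 and Id3 -0.24. In replicates 3 and 4 only, Id1 was -0.12 and Id3 -0.020. With single libraries left out, Smad7 ranged from -0.22 to 0.058, Id1 from -0.057 to 0.16, Id3 from -0.21 to 0.28 and Tgfb3 from -0.11 to 0.35. Tgfb2 ranged from 0.07 to 0.82, lowest without adult replicate 3. Each of the 10 genes had at least 94 reads in every library, so the number of mice limits the precision more than depth does.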
